A study of Mus musculus with 6 samples.

Results

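Interferon-stimulated genes and the genes of RNA sensing were examined as a list of 43 mouse genes, matched by symbol to the Ensembl gene IDs of the count tables. All 43 were among the 38087 IDs, and 42 passed the filter on low counts. Mx1 did not, at 0.0278 to 0.132 CPM (the usual depth-scaled count unit, here with library totals scaled by TMM). The RNA came from HL-1 cells, an established mouse atrial cardiomyocyte line. Circular RNA-INSR was the target of the siRNA given at 100 nM to one group, and the other received a scrambled siRNA, called the control here. Circular RNA carries no poly(A) tail, so that its knockdown cannot be checked in these libraries. Each group had 3 libraries of poly(A)-selected RNA, with total counts between 60024750 and 77037474. No other allele, agent or time point is named in the labels, and the labels do not say whether replicates were separate cultures. The p-values therefore measure the spread between these libraries, which may be technical.

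Cells recognise foreign or misplaced RNA with the cytosolic helicases RIG-I and MDA5, which signal through MAVS on mitochondria, and with the endosomal receptor TLR3. These pathways activate IRF3 and IRF7, which switch on type I interferon genes. Secreted interferon binds its receptor on the same and neighbouring cells, and a complex that contains STAT2 and IRF9 then drives interferon-stimulated genes through a promoter element called the interferon-stimulated response element. Many products of these genes restrict viruses, and several are themselves RNA sensors or transcription factors of the pathway.

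The core of that element consists of the letters GAAA, any 2 bases, and GAAA again. It was searched on both strands in RefSeq promoter windows of GRCm38.p6, from 250 bases before to 50 bases after each start. Windows were found for 33 members, and the other 10 were Usp18, Mx1, Mx2, Oas2, Dhx58, Ifi27, Parp9, Parp14, Zbp1 and Rtp4. Of the 33, 15 (45.5%) held at least 1 match, against 3.99% of 27025 genes with a window. The gamma-activated sequence TTCNNNGAA, an element of the interferon gamma response, was in 8 of the 33 (24.2%), against 9.55% of all genes. Matches of these elements can overlap each other. The stretches below are a selection from members whose libraries of one group spanned more than 2-fold, or, for Ifit3 and Oas3, from neighbours of such genes. Ifitm3, Gbp7, Ddx58 and, at a mean under 1 CPM, Rsad2 also had such a span and a match, and their stretches are not shown. Capitals mark the response element in either orientation.
Isg15: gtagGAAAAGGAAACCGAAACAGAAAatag
Ifit1: TTTCACTTTCcagtctcagTTTCAGTTTCt
Ifit3: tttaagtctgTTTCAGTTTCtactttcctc
Oas1a: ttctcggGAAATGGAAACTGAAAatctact
Oas3: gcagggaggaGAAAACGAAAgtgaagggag
Gbp3: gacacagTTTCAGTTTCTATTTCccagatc
Bst2: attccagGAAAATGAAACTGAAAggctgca
The Isg15 stretch, with 3 overlapping matches, lies at chr4:156200871-156200900 (minus strand) and that of Ifit1, with 2 separate matches, at chr19:34640785-34640814 (plus strand). The others lie at chr19:34583397-34583426 (plus strand) for Ifit3, chr5:120907523-120907552 (minus strand) for Oas1a, chr5:120777715-120777744 (minus strand) for Oas3, chr3:142559992-142560021 (plus strand) for Gbp3 and chr8:71537580-71537609 (minus strand) for Bst2. A match is a run of letters and not a measured binding site.

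Few of these genes differed between the groups by more than their libraries differed within a group. Of the 42 tested, 4 rose after Circ-INSR siRNA (Oas1a, Oas2, Trim25 and Ifit2) and 3 fell (Irf1, Irf3 and Herc6), at a Benjamini-Hochberg adjusted p under 0.05 in the edgeR quasi-likelihood test. That is 16.7% of the list in either direction, against 57.0% of the 16666 genes tested, with 28.5% higher and 28.5% lower. The groups did not overlap for 8 of the 42, compared with 63.3% of all genes tested. The median log2 fold change was 0.08 over the list and 0.00 over all genes tested. Without Circ-INSR siRNA replicate 3 the number of genes higher was 18, against 25.1% of 16953 genes tested. Without control replicate 3 it was 1, where 5150 of all genes tested were higher.

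**Figure D1:**
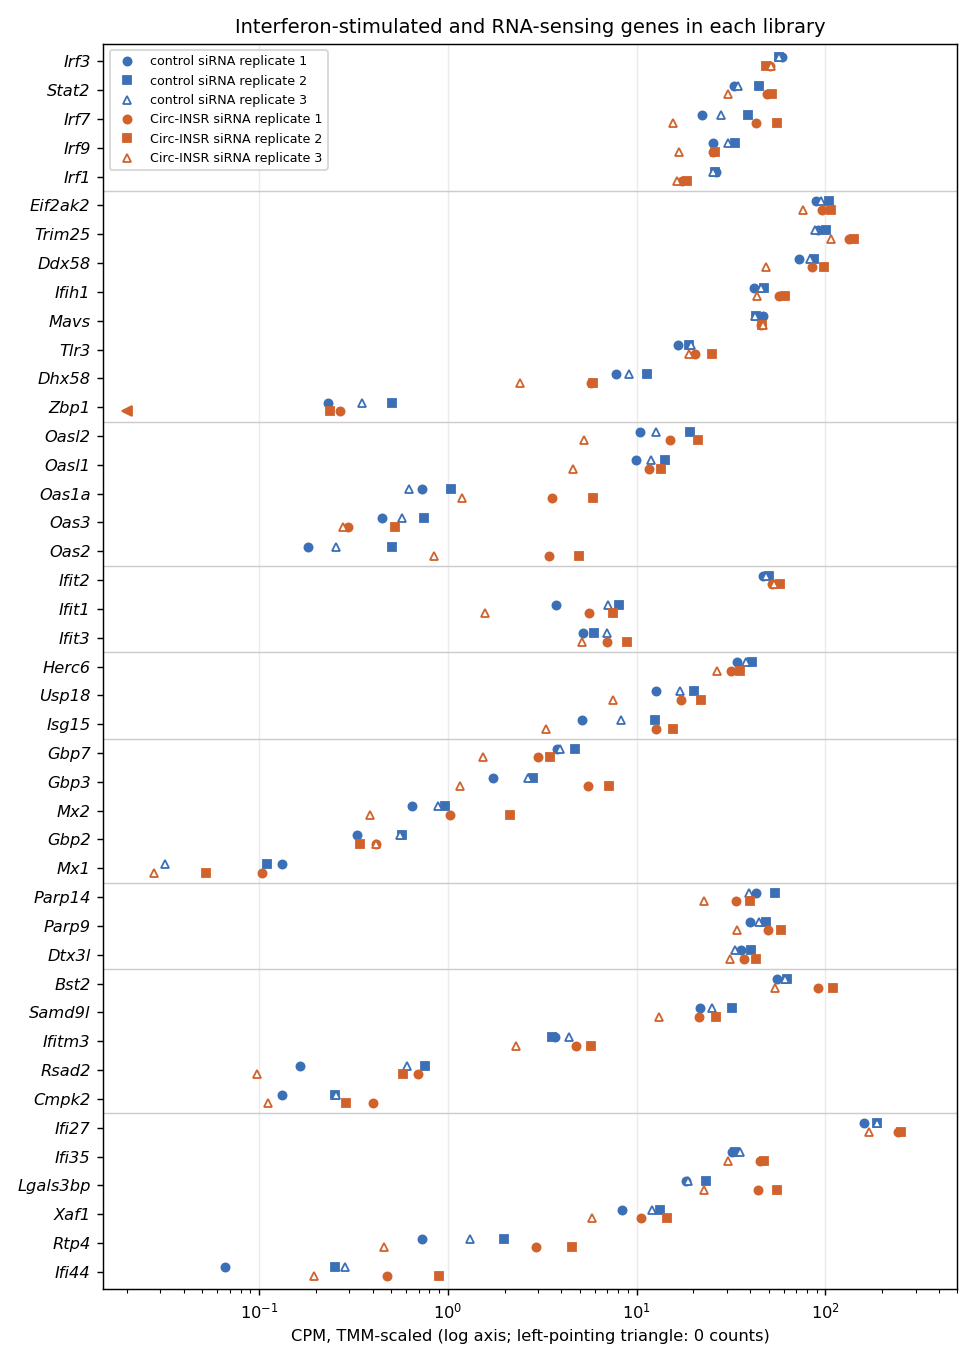
Level of each of the 43 genes in each library, in TMM-scaled CPM on a logarithmic axis, grouped by role. Filled circles are replicate 1, squares replicate 2 and open triangles replicate 3. The open orange triangles of Circ-INSR siRNA replicate 3 lie left of the other orange symbols for most genes, as with Isg15 at 3.30 against 12.7 and 15.7 CPM.

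The libraries of one group differed from each other in a shared order. Circ-INSR siRNA replicate 3 was the lowest of its group for 38 of the 42 genes (90.5%), where 33.2% of all genes tested had that order. The exceptions were Irf3, Ifit2, Mavs and Gbp2. Circ-INSR siRNA replicate 2 was the highest of its group for 36, against 30.5% of all genes. In the control group replicate 1 was the lowest for 34, against 34.7%, and replicate 2 the highest for 32, against 26.8%. Among the 36 members with a mean of at least 1 CPM, the median log2 ratio of Circ-INSR siRNA replicate 3 to the mean of replicates 1 and 2 was -0.87. For all 13306 genes at that level it was 0.00, with 90% of genes between -0.19 and 0.18, and 32 of the 36 members lay below that range. The ratio of control replicate 1 to the mean of control replicates 2 and 3 had a median of -0.23 for the members and 0.00 for all genes.

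**Figure D2:**
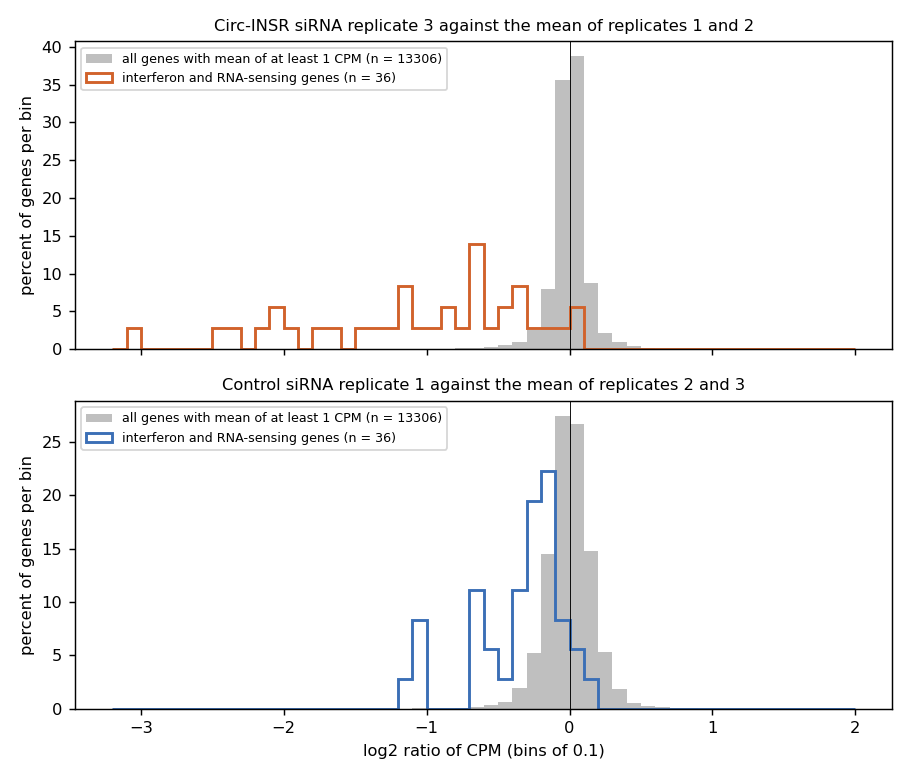
Distribution of the log2 ratio of 1 library to the mean of the other libraries of its group, as a percentage of genes in bins of 0.1, for the 36 genes of the list with a mean of at least 1 CPM (outline) and all 13306 genes at that level (grey). The outline of the upper panel reaches to -3.02, with a median of -0.87, while the grey bars centre on 0.00. In the lower panel the outline is shifted less, with a median of -0.23.

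A span of more than 2-fold among the Circ-INSR siRNA libraries was seen for 19 of the 36 members and for 52 of the 13306 genes (0.391%). Among the control libraries it was seen for 4 members, Ifit1, Isg15, Oas2 and Rtp4, and for 36 genes (0.271%). Oas2, Oas1a and Mx2 reached the mean of 1 CPM only through the Circ-INSR siRNA libraries. For Oas2 the control libraries averaged 0.315 CPM, from 11, 32 and 16 counts. They averaged 0.798 CPM for Oas1a and 0.834 CPM for Mx2. In a ranking of the 13306 genes by the ratio of Circ-INSR siRNA replicate 3 to the other libraries of its group, 14 of the 20 lowest were members, and 3 more were on the list of other interferon genes given further on. Of the 50 lowest, 20 were members. Both lists were chosen with earlier results of these data known, so these counts are no independent support for a shared order. Circ-INSR siRNA replicates 1 and 2 exceeded every control for 20 of the 42 genes, while replicate 3 was below every control for 31, against 34.6% and 38.9% of all genes. Both held at once for 11 genes (Irf7, Stat2, Isg15, Mx2, Bst2, Ifi35, Ifitm3, Gbp3, Parp9, Rtp4 and Cmpk2), and for 68 of all genes tested (0.408%).

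Over all genes, Circ-INSR siRNA replicate 3 did not stand apart. Its log2 ratio to the other 2 libraries spanned 0.37 between the 5th and 95th percentile, against 0.35 and 0.34 for replicates 1 and 2, and its total of 73084110 counts lay between theirs. The widest span, 0.58, was that of control replicate 3. Of 12 markers of atrial cardiomyocytes, all were detected, with a summed level of 7490 to 7754 CPM in control and 8322 to 8445 CPM in Circ-INSR siRNA libraries. Of these 7 rose and 3 fell, against 28.5% and 28.5% of all genes tested. On average Actc1 rose from 887 to 1625 CPM and Tnnt2 fell from 2021 to 1216 CPM. The 10 leukocyte and macrophage markers summed to 7.09 to 8.10 and 4.24 to 4.62 CPM, with Adgre1 at 0 counts in every library and Tyrobp at no more than 1. Most of that sum was Cd68, which fell from 5.19 to 3.27 CPM on average. Csf1r fell from 1.65 to 0.653 CPM. All 3 leukocyte markers that passed the filter fell, against 28.5% of all genes tested. The 6 fibroblast markers summed to 172 to 189.8 and 133 to 149.6 CPM, most of it Col1a1, which fell, with Lum at no more than 2 counts. Col3a1 and Col1a2 rose, from 12.2 to 22.2 and from 0.313 to 0.995 CPM on average. The 5 endothelial markers summed to 27.3 to 30.7 and 82.7 to 86.7 CPM, most of it Kdr, with Cdh5 at no more than 4 counts in any library. On average Kdr rose from 24.2 to 71.7 CPM and Tek from 4.11 to 11.2 CPM, while Pecam1 and Tie1 did not pass the test. Circ-INSR siRNA replicate 3 was the lowest of its group for 5 of the 12 atrial markers, 0 of 3 leukocyte, 2 of 4 fibroblast and 2 of 4 endothelial markers that passed the filter, against 33.2% of all genes tested. The part of other cell types in the results was not tested. Fewer cells of a type and less RNA per cell cannot be told apart in bulk RNA.

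Values in CPM are given below in the order of replicates 1, 2 and 3. Among the transcription factors, the 2 that passed the test were those whose libraries agreed best. Irf1, an interferon-induced activator of antiviral genes (ENSMUSG00000018899, chromosome 11, 53770014 to 53778374, plus strand), had 26.4, 26.2 and 25.5 CPM in the control libraries and 17.4, 18.5 and 16.4 CPM in the Circ-INSR siRNA libraries. The groups did not overlap, and Irf1 fell (log2 fold change -0.58, SE 0.06, edgeR adjusted p = 5.91e-06), a call kept in each of the 15 alternatives. In Irf1 135 of the exonic bases overlap Gm17334 on the other strand. Irf3, the constitutive factor activated by RNA sensors (ENSMUSG00000003184, chromosome 7, 44997648 to 45002848, plus strand), had 58.6, 56.96 and 56.7 CPM in the control libraries and 51.1, 48.3 and 51.5 CPM in the Circ-INSR siRNA libraries. It also fell without overlap (log2 fold change -0.19, SE 0.05, edgeR adjusted p = 0.00342), and 88 of its exonic bases overlap Bcl2l12 on the other strand.

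Irf7, the interferon-inducible partner of Irf3 (ENSMUSG00000025498, chromosome 7, 141262706 to 141266481, minus strand), had 22.1, 39.1 and 28.03 CPM in the control libraries and 43.1, 55.6 and 15.7 CPM in the Circ-INSR siRNA libraries. The Circ-INSR siRNA libraries thus lay on both sides of all controls, and Irf7 did not pass the test (log2 fold change 0.36, SE 0.55, edgeR adjusted p = 0.623). Stat2, a subunit of the interferon-activated complex, had 32.98, 44.7 and 34.4 CPM in the control libraries and 49.1, 52.4 and 30.5 CPM in the Circ-INSR siRNA libraries, the same arrangement (log2 fold change 0.24, SE 0.26, edgeR adjusted p = 0.483). Without Circ-INSR siRNA replicate 3 its log2 fold change was 0.45 (SE 0.12, edgeR adjusted p = 0.0165). Irf9, the DNA-binding subunit of that complex, had 25.5, 33.1 and 30.4 CPM in the control libraries and 25.3, 25.9 and 16.8 CPM in the Circ-INSR siRNA libraries, with log2 fold change -0.39, SE 0.19, edgeR adjusted p = 0.135.

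Of the 8 RNA sensors and adaptors, Trim25 alone rose with all libraries, against 28.5% of all genes tested. Trim25 is the ubiquitin ligase that promotes RIG-I signalling (ENSMUSG00000000275, chromosome 11, 88999376 to 89020293, plus strand). It had 91.8, 101 and 87.6 CPM in the control libraries and 134, 142 and 108 CPM in the Circ-INSR siRNA libraries, without overlap (log2 fold change 0.45, SE 0.10, edgeR adjusted p = 0.00528). It lost its call without control replicate 3, at adjusted p = 0.108, and kept it in the other 14 alternatives. Mavs, the mitochondrial adaptor of the helicases, had 46.8, 42.8 and 42.4 CPM in the control libraries and 45.8, 46.3 and 46.7 CPM in the Circ-INSR siRNA libraries, values that lay close together (log2 fold change 0.07, SE 0.05, edgeR adjusted p = 0.24). It was called higher in the fit without control replicate 1 alone, with a log2 fold change of 0.12.

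Ddx58, which encodes RIG-I (ENSMUSG00000040296, chromosome 4, 40203773 to 40239828, minus strand), had 72.5, 87.4 and 82.6 CPM in the control libraries and 85.1, 98.6 and 48.2 CPM in the Circ-INSR siRNA libraries. Replicate 3 was at 52.5% of the mean of the other Circ-INSR siRNA libraries, and the group difference did not pass the test (log2 fold change -0.06, SE 0.29, edgeR adjusted p = 0.874). Ifih1, which encodes MDA5, had 41.8, 47.2 and 45.6 CPM in the control libraries and 56.6, 61.1 and 43.6 CPM in the Circ-INSR siRNA libraries, with log2 fold change 0.26, SE 0.12, edgeR adjusted p = 0.101. Without Circ-INSR siRNA replicate 3 it was higher by 0.39 (SE 0.07, edgeR adjusted p = 0.000672), and DESeq2 with all libraries also called it higher. Dhx58 encodes LGP2, a helicase that tunes RIG-I and MDA5 (ENSMUSG00000017830, chromosome 11, 100694884 to 100704271, minus strand). It had 7.82, 11.4 and 9.08 CPM in the control libraries and 5.72, 5.86 and 2.42 CPM in the Circ-INSR siRNA libraries, so that each Circ-INSR siRNA library lay below each control. The edgeR test fell short of the threshold (log2 fold change -1.01, SE 0.36, edgeR adjusted p = 0.0593), whereas DESeq2, limma-voom, the replicate block, halved counts and the filter of 1 CPM each called it lower. Without Circ-INSR siRNA replicate 3 its value was -0.70 (SE 0.14, edgeR adjusted p = 0.00228), in the direction opposite to that of Ifih1.

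Tlr3, the endosomal receptor of double-stranded RNA, had 16.5, 18.9 and 19.5 CPM in the control libraries and 20.4, 25.03 and 18.9 CPM in the Circ-INSR siRNA libraries (log2 fold change 0.23, SE 0.10, edgeR adjusted p = 0.0748). It was called higher by DESeq2, the replicate block and the fit without Circ-INSR siRNA replicate 3, and 7.32% of its exonic bases overlap Gm45542 on the other strand. Eif2ak2, which encodes the RNA-activated kinase PKR, had 89.5, 105 and 95.1 CPM in the control libraries and 95.8, 106 and 76.03 CPM in the Circ-INSR siRNA libraries. Its groups overlapped (log2 fold change -0.06, SE 0.12, edgeR adjusted p = 0.717). Zbp1, a sensor of Z-form nucleic acid, was near the limit of detection at 0.231, 0.507 and 0.3503 CPM in the control libraries and 0.267, 0.237 and 0 CPM in the Circ-INSR siRNA libraries. The value of 0 counts in Circ-INSR siRNA replicate 3 allows up to 0.0417 CPM, from 3 counts and for counting error only. That limit takes each count as independent and would be higher if both mates of a read pair were counted.

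OAS enzymes make the second messenger that activates the antiviral ribonuclease RNase L. Their family held the largest log2 fold changes of the list, and its members had values of both signs. Oas2 (ENSMUSG00000032690, chromosome 5, 120730333 to 120749853, minus strand) had 0.182, 0.507 and 0.255 CPM in the control libraries and 3.45, 4.93 and 0.849 CPM in the Circ-INSR siRNA libraries. All Circ-INSR siRNA libraries exceeded all controls, although they spanned more than 2-fold among themselves. Oas2 rose (log2 fold change 3.28, SE 0.88, edgeR adjusted p = 0.0276), with adjusted p from 5.33e-06 to 0.137 over the alternatives. Oas1a (ENSMUSG00000052776, chromosome 5, 120896256 to 120907521, minus strand), which has close paralogs in the same cluster, had 0.727, 1.05 and 0.621 CPM in the control libraries and 3.55, 5.88 and 1.196 CPM in the Circ-INSR siRNA libraries. It rose as well (log2 fold change 2.15, SE 0.69, edgeR adjusted p = 0.0483), with adjusted p from 3.02e-05 to 0.173 over the alternatives. Both calls were lost when control replicate 1, 2 or 3 or Circ-INSR siRNA replicate 1 was left out. The Oas2 test was also lost with no filter and limma-voom, and Oas2 was not tested with the filter of 1 CPM in 3 libraries. The Oas1a test was also lost with total counts, no filter, limma-voom, halved counts and thinned libraries.

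Oas3 lies on chromosome 5 as well (ENSMUSG00000032661, chromosome 5, 120753098 to 120777661, minus strand), yet it had 0.446, 0.745 and 0.573 CPM in the control libraries and 0.297, 0.526 and 0.278 CPM in the Circ-INSR siRNA libraries. Its log2 fold change was negative and did not pass the test (log2 fold change -0.67, SE 0.32, edgeR adjusted p = 0.0939), except without Circ-INSR siRNA replicate 2. The difference between these neighbours was not tested. Oasl1 and Oasl2 are OAS-like genes at another place on the same chromosome. Oasl1 (ENSMUSG00000041827, chromosome 5, 114923240 to 114937915, plus strand) had 9.88, 14.1 and 11.8 CPM in the control libraries and 11.6, 13.5 and 4.58 CPM in the Circ-INSR siRNA libraries, with log2 fold change -0.27, SE 0.44, edgeR adjusted p = 0.64. Oasl2 (ENSMUSG00000029561, chromosome 5, 114896936 to 114912234, plus strand) had 10.4, 19.3 and 12.6 CPM in the control libraries and 15.04, 21.2 and 5.29 CPM in the Circ-INSR siRNA libraries, with log2 fold change -0.03, SE 0.59, edgeR adjusted p = 0.976. In both, Circ-INSR siRNA replicate 3 lay below every control, and replicate 1 lay within the control range.

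IFIT proteins bind viral RNA ends and block its translation. The 3 genes lie together on chromosome 19 and showed different library spreads. Ifit2 (ENSMUSG00000045932, chromosome 19, 34550694 to 34576419, plus strand) had 46.8, 50.5 and 48.5 CPM in the control libraries and 52.3, 57.6 and 53.3 CPM in the Circ-INSR siRNA libraries. Its libraries were tight, the groups did not overlap, and it rose slightly (log2 fold change 0.16, SE 0.05, edgeR adjusted p = 0.0185). That call was lost with total counts, where adjusted p was 0.0777, and without control replicate 1 or Circ-INSR siRNA replicate 2. Ifit1 (ENSMUSG00000034459, chromosome 19, 34640871 to 34650009, plus strand) had 3.73, 8.07 and 7.02 CPM in the control libraries and 5.57, 7.51 and 1.57 CPM in the Circ-INSR siRNA libraries. Control replicate 1 stood at 49.5% of the mean of the other controls, and Circ-INSR siRNA replicate 3 at 24.03% of the other libraries of its group (log2 fold change -0.36, SE 0.64, edgeR adjusted p = 0.672). Ifit3, which has a close paralog in Ifit3b, had 5.19, 5.94 and 7.01 CPM in the control libraries and 6.94, 8.88 and 5.12 CPM in the Circ-INSR siRNA libraries, with log2 fold change 0.21, SE 0.20, edgeR adjusted p = 0.406.

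ISG15 is a ubiquitin-like protein that is attached to other proteins, HERC6 is its ligase in mice, and USP18 removes it and also dampens the interferon receptor. Isg15 (ENSMUSG00000035692, chromosome 4, 156199424 to 156200818, minus strand) had 5.12, 12.6 and 8.28 CPM in the control libraries and 12.7, 15.7 and 3.297 CPM in the Circ-INSR siRNA libraries. Circ-INSR siRNA replicate 3 was below every control, while replicates 1 and 2 were above them, and no group difference was detected at this spread (log2 fold change 0.29, SE 0.69, edgeR adjusted p = 0.756). Usp18 (ENSMUSG00000030107, chromosome 6, 121245906 to 121270917, plus strand) had 12.6, 20.1 and 16.96 CPM in the control libraries and 17.1, 22.01 and 7.48 CPM in the Circ-INSR siRNA libraries, with log2 fold change -0.09, SE 0.46, edgeR adjusted p = 0.886. Herc6 (ENSMUSG00000029798, chromosome 6, 57581000 to 57664632, plus strand) had 34.1, 40.9 and 38.04 CPM in the control libraries and 31.5, 35.1 and 26.8 CPM in the Circ-INSR siRNA libraries. It fell by a small amount with overlapping groups (log2 fold change -0.28, SE 0.10, edgeR adjusted p = 0.0386), and 13.7% of its exonic bases are shared with Gm45193 on the same strand. The call was lost without Circ-INSR siRNA replicate 3, at -0.17 (SE 0.08, edgeR adjusted p = 0.105), without control replicate 2 or 3 or Circ-INSR siRNA replicate 1, and with no filter.

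Of the antiviral GTPase genes none of the 4 tested passed, against 57.0% of all genes tested. Gbp3, a guanylate-binding protein gene (ENSMUSG00000028268, chromosome 3, 142560026 to 142573209, plus strand), had 1.74, 2.84 and 2.66 CPM in the control libraries and 5.54, 7.11 and 1.15 CPM in the Circ-INSR siRNA libraries. Replicate 3 was at 18.3% of the mean of the other Circ-INSR siRNA libraries, the lowest share after that of Rtp4 among all 13306 genes with a mean of at least 1 CPM (log2 fold change 0.93, SE 0.71, edgeR adjusted p = 0.329). Without that library Gbp3 was higher by 1.39 (SE 0.19, edgeR adjusted p = 0.000157). Its neighbour Gbp7 (ENSMUSG00000040253, chromosome 3, 142530342 to 142550149, plus strand) had 3.801, 4.69 and 3.92 CPM in the control libraries and 3.002, 3.49 and 1.54 CPM in the Circ-INSR siRNA libraries, with each Circ-INSR siRNA library below each control (log2 fold change -0.63, SE 0.26, edgeR adjusted p = 0.0737). DESeq2 (adjusted p = 0.0166), the edgeR fit with the replicate block (adjusted p = 0.0119) and that without Circ-INSR siRNA replicate 2 called Gbp7 lower. These genes have close paralogs, and 11.3% of the exonic bases of Gbp7 are shared with Gm43802. Gbp2 had 0.331, 0.571 and 0.557 CPM in the control libraries and 0.416, 0.342 and 0.417 CPM in the Circ-INSR siRNA libraries and did not follow the library order of Gbp3 (log2 fold change -0.32, SE 0.29, edgeR adjusted p = 0.374). Mx2 belongs to the family of dynamin-like antiviral GTPases, and its gene is annotated as a polymorphic pseudogene. It had 0.644, 0.967 and 0.892 CPM in the control libraries and 1.03, 2.13 and 0.3895 CPM in the Circ-INSR siRNA libraries (log2 fold change 0.51, SE 0.57, edgeR adjusted p = 0.485).

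Parp9 and Dtx3l encode partners of an ADP-ribosylation and ubiquitin ligase complex and lie side by side on chromosome 16, with 458 exonic bases shared on opposite strands. Parp9 (ENSMUSG00000022906, chromosome 16, 35938470 to 35972605, plus strand) had 39.8, 48.5 and 44.6 CPM in the control libraries and 49.7, 57.96 and 33.8 CPM in the Circ-INSR siRNA libraries, with log2 fold change 0.09, SE 0.22, edgeR adjusted p = 0.75. Dtx3l had 35.5, 40.1 and 33.2 CPM in the control libraries and 37.1, 42.9 and 31.3 CPM in the Circ-INSR siRNA libraries, with log2 fold change 0.03, SE 0.12, edgeR adjusted p = 0.821. Parp14, a related enzyme gene, had 42.9, 53.9 and 39.6 CPM in the control libraries and 33.7, 40.01 and 22.7 CPM in the Circ-INSR siRNA libraries, with log2 fold change -0.50, SE 0.25, edgeR adjusted p = 0.155. The 3 genes had Circ-INSR siRNA replicate 3 as the lowest of all 6 libraries. None passed the test, against 57.0% of all genes tested. The edgeR fit with the replicate block called Parp14 lower, at adjusted p = 0.000723.

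Bst2 encodes tetherin, which holds budding virus particles at the cell surface (ENSMUSG00000046718, chromosome 8, 71534255 to 71537456, minus strand). It had 55.3, 62.9 and 61.3 CPM in the control libraries and 90.8, 109.6 and 54.4 CPM in the Circ-INSR siRNA libraries. Circ-INSR siRNA replicates 1 and 2 were far above every control and replicate 3 just below them, and the test with all libraries did not pass (log2 fold change 0.50, SE 0.28, edgeR adjusted p = 0.198). Without replicate 3 the log2 fold change was 0.75 (SE 0.08, edgeR adjusted p = 4.43e-05). Ifitm3, a membrane protein gene that blocks viral entry (ENSMUSG00000025492, chromosome 7, 141009586 to 141010770, minus strand), had 3.702, 3.58 and 4.39 CPM in the control libraries and 4.75, 5.71 and 2.31 CPM in the Circ-INSR siRNA libraries, with log2 fold change 0.13, SE 0.32, edgeR adjusted p = 0.754. Samd9l, an antiviral and growth-restricting gene (ENSMUSG00000047735, chromosome 6, 3372257 to 3399572, minus strand), had 21.6, 31.9 and 25 CPM in the control libraries and 21.3, 26.3 and 13.1 CPM in the Circ-INSR siRNA libraries, with log2 fold change -0.37, SE 0.31, edgeR adjusted p = 0.367. Rsad2, which encodes viperin, and its neighbour Cmpk2, a nucleotide kinase gene, stayed under 1 CPM. Rsad2 had 0.165, 0.761 and 0.605 CPM in the control libraries and 0.698, 0.579 and 0.0974 CPM in the Circ-INSR siRNA libraries, and Cmpk2 had 0.132, 0.254 and 0.255 CPM in the control libraries and 0.401, 0.289 and 0.111 CPM in the Circ-INSR siRNA libraries.

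Lgals3bp, which encodes a secreted glycoprotein that binds galectin-3 (ENSMUSG00000033880, chromosome 11, 118392751 to 118402092, minus strand), had 18.2, 23.3 and 18.7 CPM in the control libraries and 43.98, 55.1 and 22.6 CPM in the Circ-INSR siRNA libraries. Replicate 3 lay within the control range, and the difference did not pass with all libraries (log2 fold change 1.02, SE 0.38, edgeR adjusted p = 0.0805). Without that library it was 1.31 (SE 0.13, edgeR adjusted p = 7.2e-05), and DESeq2 with all libraries also called it higher. Rtp4, a chaperone gene of membrane receptors (ENSMUSG00000033355, chromosome 16, 23520291 to 23614222, plus strand), had 0.727, 1.997 and 1.31 CPM in the control libraries and 2.93, 4.54 and 0.459 CPM in the Circ-INSR siRNA libraries. Its replicate 3 was at 12.3% of the mean of the other Circ-INSR siRNA libraries, the lowest share among the 13306 genes, and control replicate 1 was at 44.03% of the other controls (log2 fold change 0.97, SE 0.89, edgeR adjusted p = 0.405). Rtp4 shares 13.9% of its exonic bases with Gm45338 on the same strand. Xaf1, a gene that promotes cell death (ENSMUSG00000040483, chromosome 11, 72301629 to 72313733, plus strand), had 8.35, 13.3 and 12.1 CPM in the control libraries and 10.6, 14.6 and 5.82 CPM in the Circ-INSR siRNA libraries, with log2 fold change -0.12, SE 0.39, edgeR adjusted p = 0.815.

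Ifi27, which encodes a small mitochondrial protein, had 160.3, 187 and 188 CPM in the control libraries and 242, 251 and 169.7 CPM in the Circ-INSR siRNA libraries, with log2 fold change 0.31, SE 0.17, edgeR adjusted p = 0.167. Ifi35 had 32.01, 33.2 and 35.4 CPM in the control libraries and 45.3, 47.3 and 30.5 CPM in the Circ-INSR siRNA libraries, and 16.8% of its exonic bases overlap Gm11626 on the other strand (log2 fold change 0.29, SE 0.17, edgeR adjusted p = 0.198). Both were higher in Circ-INSR siRNA replicates 1 and 2 than in any control, with replicate 3 inside or just below the control range. Ifi44 had 0.0661, 0.254 and 0.287 CPM in the control libraries and 0.475, 0.895 and 0.195 CPM in the Circ-INSR siRNA libraries, with log2 fold change 1.36, SE 0.60, edgeR adjusted p = 0.0798.

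The number of calls among these genes depended most on Circ-INSR siRNA replicate 3. When it was left out, 18 of 42 rose, against 25.1% of 16953 genes tested, and 3 fell, against 25.4%. Of the 7 genes called with all libraries, 6 were still called and Herc6 was not. The 15 added calls were Dhx58, which was lower, and 14 higher genes. These were Ifi44, Rtp4, Gbp3, Lgals3bp, Mx2, Bst2, Ifi27, Ifi35, Stat2, Ifitm3, Ifih1, Ifit3, Tlr3 and Parp9. Their log2 fold changes ran from 0.29 (SE 0.09, edgeR adjusted p = 0.0216) for Parp9 to 1.76 (SE 0.48, edgeR adjusted p = 0.0114) for Ifi44. Even then Irf7, Isg15, Usp18, Ifit1, Oasl1, Oasl2, Ddx58 and Xaf1 did not pass, with Isg15 at 0.72 (SE 0.38, edgeR adjusted p = 0.196). Over the list the median log2 fold change was 0.30 without that library and -0.13 without Circ-INSR siRNA replicate 2. Leaving out any of the other 5 libraries gave 1 to 3 genes higher and 2 to 5 lower. In those fits 4209 to 5150 of all genes tested were higher and 4148 to 5064 lower. The labels give no reason to set replicate 3 aside. That library stood out by the low values of these same genes. The calls and p-values without it are therefore no independent support for a rise.

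**Figure D3:**
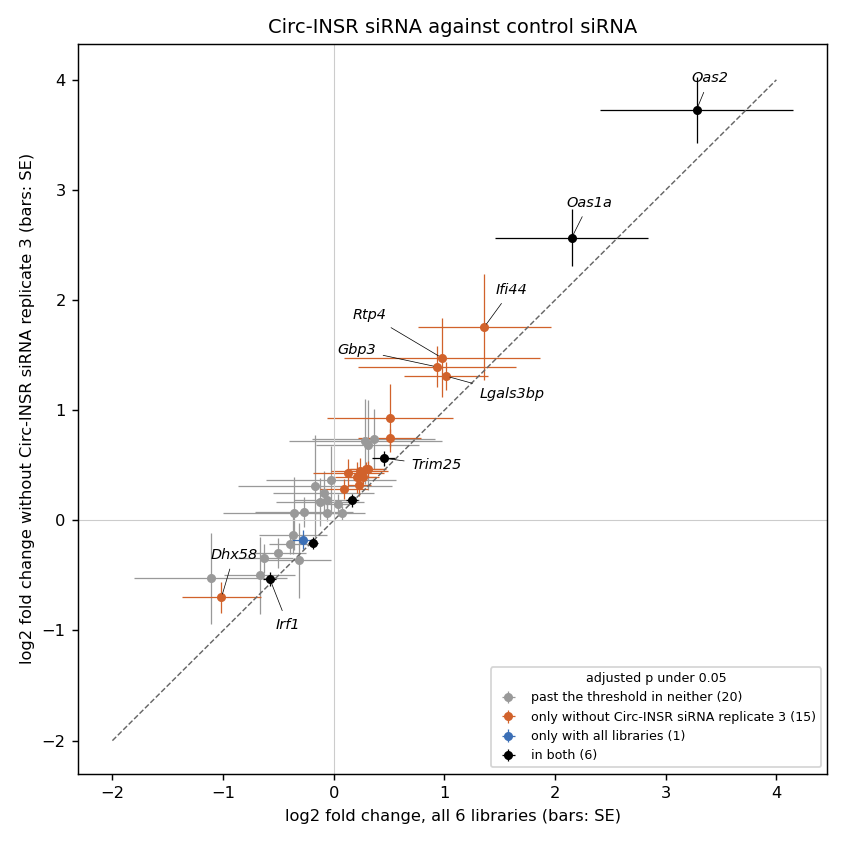
Log2 fold change of Circ-INSR siRNA against control with all 6 libraries (horizontal) and without Circ-INSR siRNA replicate 3 (vertical) for the 42 tested genes, with bars for the SE. The dashed line marks equal values. Most genes lie above it, 6 genes pass the threshold in both fits, 15 only without replicate 3 and 1 only with all libraries.

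**Figure D4:**
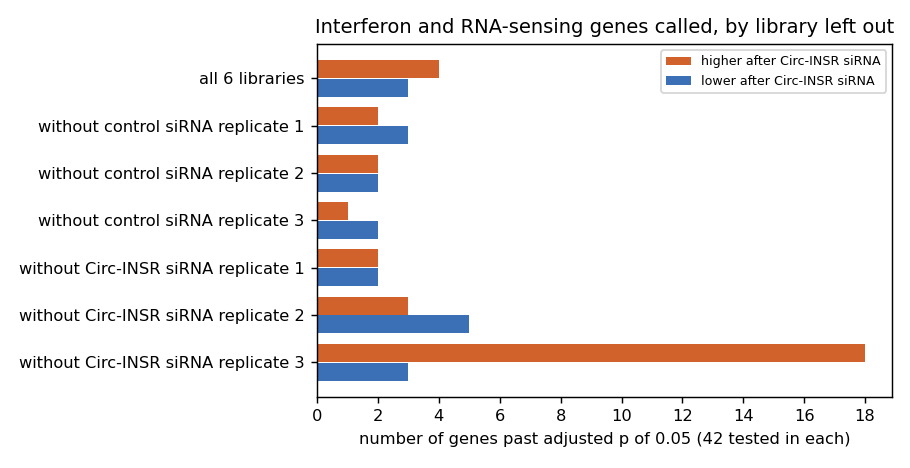
Number of the 42 tested genes past an adjusted p of 0.05 in each direction with all libraries and with each library left out. The bar for higher genes reaches 18 without Circ-INSR siRNA replicate 3 and lies between 1 and 4 in the other fits.

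Members whose promoter window held the response element had a median log2 ratio of Circ-INSR siRNA replicate 3 to the others of -1.0 (12 genes with a mean of at least 1 CPM, from -2.45 to -0.41). The 16 members with a window, no match and a mean of at least 1 CPM had a median of -0.48, from -1.78 to 0.05. The ranges overlap, and no test was made of this description. Oasl2 and Irf7 had no match in this window and were among the most variable genes. Oas1a and Oas3, with the stretches printed above, both held matches and had log2 fold changes of opposite sign.

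By length, the levels in control libraries ran from 122 CPM per kilobase of exon for Ifi27 and 66.3 for Bst2 down to 0.0242 for Mx1. For 20 of the 43 the level per kilobase was above 5.06, the median of all genes tested. Among the sensors and adaptors, Eif2ak2 at 18.9, Trim25 at 16.2, Mavs at 13.2 and Ddx58 at 11.5 CPM per kilobase were well above that median, and Dhx58 at 2.88 and Zbp1 at 0.103 below it. Oas1a at 0.423, Mx2 at 0.231, Rsad2 at 0.118 and Oas2 at 0.0707 CPM per kilobase were near the lower end. The 2 largest rises, those of Oas1a and Oas2, were thus of genes at low control levels.

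The interferon genes themselves were hardly detected. Of the 9 looked up, 0 passed the filter on low counts, so none was tested. Ifnb1, which encodes interferon beta, had 0 counts in each control library and 6, 2 and 0 counts in Circ-INSR siRNA replicates 1, 2 and 3. Ifng had 0 counts in each control and 2, 4 and 2 counts after Circ-INSR siRNA. The other 7 had at most 2 counts in any library. At this depth 3 counts correspond to 0.0395 to 0.0496 CPM.

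A further list held 133 other genes of the pathway. Of the 110 tested, 25 rose and 37 fell, which is 56.4% and close to the background. Of 9 genes of interferon receptors and their kinases, 2 rose and 5 fell, against 28.5% and 28.5% of all genes tested. Tyk2, a kinase of the type I receptor, fell from 65.9 ± 4.66 to 33.7 ± 0.778 CPM (SD, n = 3 each; log2 fold change -0.97, SE 0.06, edgeR adjusted p = 6.8e-08). Both chains of the type I interferon receptor passed in opposite directions. Ifnar1 rose, with 68.7, 69.5 and 67.4 CPM in the control libraries and 82.9, 83.96 and 84.5 CPM in the Circ-INSR siRNA libraries (log2 fold change 0.29, SE 0.04, edgeR adjusted p = 8.26e-05). Ifnar2 fell, with 65.7, 66.01 and 69.1 CPM in the control libraries and 53.1, 51.3 and 54.6 CPM in the Circ-INSR siRNA libraries (log2 fold change -0.34, SE 0.05, edgeR adjusted p = 5.82e-05). Ifngr2, a chain of the interferon gamma receptor, fell from 278 ± 10.7 to 184 ± 3.23 CPM (log2 fold change -0.60, SE 0.04, edgeR adjusted p = 3.98e-07). Circ-INSR siRNA replicate 3 was the lowest of its group for 0 of these 9 genes, against 33.2% of all genes tested.

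Among 25 tested genes of sensor signalling 6 rose and 11 fell, 68.0% in either direction against 57.0% of all genes tested. The kinases that activate IRF3 were among those that fell. Tbk1 fell from 59.8 ± 0.5703 to 41.5 ± 0.5103 CPM (SD, n = 3 each; log2 fold change -0.53, SE 0.04, edgeR adjusted p = 7.78e-07). Ikbke, its relative, fell from 7.82 ± 0.7498 to 4.02 ± 0.311 CPM (log2 fold change -0.96, SE 0.10, edgeR adjusted p = 7.45e-06). Tbkbp1, which encodes a binding partner of TBK1, rose from 4.03 ± 0.105 to 8.75 ± 0.646 CPM (log2 fold change 1.12, SE 0.09, edgeR adjusted p = 6.98e-07). G3bp1, a stress granule protein gene, rose from 415 ± 2.58 to 646 ± 6.84 CPM (log2 fold change 0.64, SE 0.04, edgeR adjusted p = 5.65e-08). In these 25 genes Circ-INSR siRNA replicate 3 was the lowest of its group 8 times, which is 32.0% against 33.2% of all genes.

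**Figure D5:**
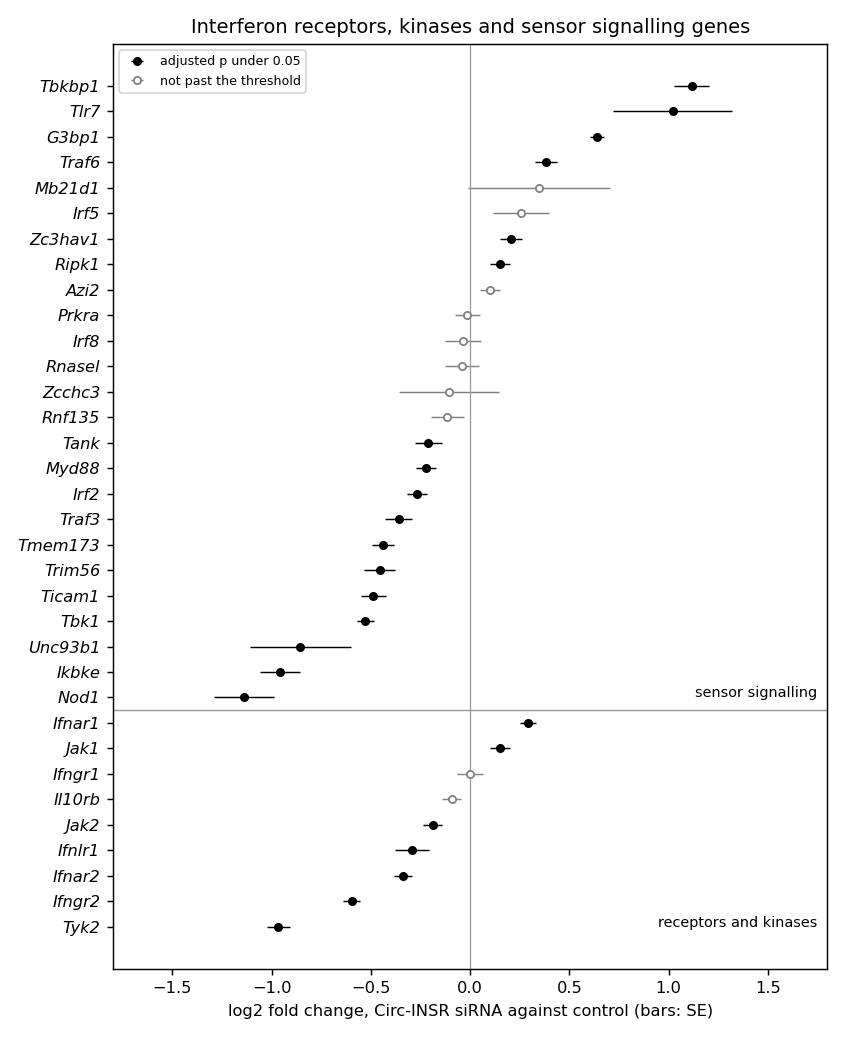
Log2 fold change of Circ-INSR siRNA against control for the 9 receptor and kinase genes and 25 sensor signalling genes tested, with bars for the SE. Filled points passed an adjusted p of 0.05. Tyk2, Ikbke and Tbk1 lie left of 0, and Tbkbp1 and G3bp1 right of it.

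Of 23 tested genes that restrain the response, 9 rose and 6 fell, 65.2% against 57.0% of all genes tested. Socs3, a feedback inhibitor of cytokine receptors, fell from 16.2 ± 0.122 to 4.85 ± 0.204 CPM (SD, n = 3 each; log2 fold change -1.74, SE 0.07, edgeR adjusted p = 4.95e-09). Samhd1, a nucleotide-degrading restriction factor, rose from 211 ± 5.304 to 399.5 ± 2.14 CPM (log2 fold change 0.92, SE 0.04, edgeR adjusted p = 8.3e-09). Cyld, a deubiquitinase gene, fell from 66.4 ± 1.698 to 49.6 ± 1.58 CPM (log2 fold change -0.42, SE 0.05, edgeR adjusted p = 9.43e-06), and Trim27 rose from 40.6 ± 0.637 to 50.3 ± 0.884 CPM (log2 fold change 0.31, SE 0.04, edgeR adjusted p = 7.79e-05). Trex1, the DNA exonuclease gene, was the one gene of this group with a mean of at least 1 CPM and a span of more than 2-fold, with 2.74, 2.16 and 2.404 CPM in the control libraries and 2.87, 0.224 and 2.43 CPM in the Circ-INSR siRNA libraries. Here replicate 2 was the low library (log2 fold change -0.42, SE 0.79, edgeR adjusted p = 0.689).

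In the 52 further interferon-stimulated genes tested, Circ-INSR siRNA replicate 3 was the lowest of its group for 43 (82.7%), against 33.2% of all genes. For 28 of them control replicate 1 was the lowest of its group, against 34.7% of all genes tested. This list, too, was chosen with earlier results of these data known. The median log2 ratio of Circ-INSR siRNA replicate 3 to the others was -0.33, against -0.88 over the 42 tested genes of the main list. Of the 52 genes 8 rose and 15 fell, 44.2% against 57.0% of all genes tested. Ube2l6, the conjugating enzyme of ISG15, had 30.7, 35.01 and 34.1 CPM in the control libraries and 12.3, 13.1 and 9.66 CPM in the Circ-INSR siRNA libraries and fell without overlap (log2 fold change -1.51, SE 0.10, edgeR adjusted p = 5.62e-07). Tap1, the peptide transporter gene, fell from 157 ± 5.17 to 86.99 ± 6.97 CPM (SD, n = 3 each; log2 fold change -0.85, SE 0.06, edgeR adjusted p = 2.55e-07). Mov10, an RNA helicase gene, rose from 25.8 ± 1.09 to 60.7 ± 7.97 CPM (log2 fold change 1.24, SE 0.09, edgeR adjusted p = 8.2e-07), and Usp25, a deubiquitinase gene, from 139 ± 2.44 to 194 ± 2.55 CPM (log2 fold change 0.47, SE 0.04, edgeR adjusted p = 1.41e-06). Apol9a and Apol9b, chosen after their values were seen, had the within-group library order of Gbp3 and Rtp4. Apol9a had 1.57, 4.28 and 2.95 CPM in the control libraries and 6.94, 9.36 and 1.68 CPM in the Circ-INSR siRNA libraries, and Apol9b had 2.48, 3.85 and 3.38 CPM in the control libraries and 9.03, 11.3 and 1.98 CPM in the Circ-INSR siRNA libraries. They are close paralogs of each other and their counts may share reads.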

How the data were processed

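Gene counts of 6 libraries from HL-1 cells were used, 3 per group. The authors deposited whole-number counts for each Ensembl gene and library. Per the submitters' processing notes the build was mm10, and the tools named, with no role or order, were STAR 2.5.0c, featureCounts 1.6.4, StringTie 1.3.5, Trim Galore, bcl2fastq, MultiQC 1.7 and FastQC 0.11.4. Not given in the sources used here were which annotation was counted, whether strand was used, and how multiply mapped reads were treated. Genes with overlapping, antisense or near-identical partners are therefore uncertain. Per the labels' protocols the RNA was poly(A)-selected and the kit directional. In every library more genes had a count of 2 than of 1, with 1434 and 1071 in control replicate 1, a pattern left when both mates of a pair are counted.

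Symbols and exons came from GENCODE M21 (GRCm38), which held 95.33% of the IDs. edgeR 4.0.16 in R 4.3.3 was run with filterByExpr (minimum count 10, minimum total 15; 16666 genes kept), TMM scaling (factors 0.983 to 1.03) and the robust quasi-likelihood F-test with group as the only term. P-values were adjusted by Benjamini-Hochberg over all genes, with a threshold of 0.05. The common biological coefficient of variation was 6.09%. SE was taken as the absolute log2 fold change over the root of F. The steps were tested on simulated counts. Members and lists were chosen with earlier results of these data known. Members past the threshold (up to 12 per direction) and those whose libraries of one group spanned over 2-fold at a mean of at least 1 CPM were to be given in full. Of other pathway genes, up to 4 per list with the smallest adjusted p were named, and 1 further gene of that list is not reported here. Alternatives were RLE and total-count scaling, no filter, 1 CPM in 3 libraries, DESeq2 1.42.0, limma-voom (limma 3.58.1), the replicate block, halved counts, thinning every library to the smallest total, and each library left out, which leaves 2 in its group.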

Additional observations from a re-analysis of the deposited data

How the results depend on the processing

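The count of genes in the list that rose, 4 with all libraries, was 2 with total-count scaling, with no filter on low counts and with limma-voom, and 7 with DESeq2. It ran from 1 to 18 when a library was left out, highest without Circ-INSR siRNA replicate 3. The count that fell, 3, was 5 with DESeq2 and ran from 2 to 5 when a library was left out. With the replicate block 5 rose and 6 fell. Over all genes tested, the deviations of libraries with the same replicate number correlated at 0.0242, 0.0739 and 0.0356. Each library correlated best with its own number. Values this small over all genes cannot decide whether the replicate numbers pair the libraries. Counts over the other pathway genes and over all genes stayed within 1.5 times in all 15 alternatives. Over all genes, the number that rose ran from 4130 to 5150 and the number that fell from 4148 to 5326. Of the 7 genes of the list past the threshold with all libraries, 0 changed sign in any alternative. Irf1 and Irf3 passed in all 15. Genes under 1 CPM rest on few counts, and the spread among Circ-INSR siRNA libraries limits what 3 libraries can show for the rest.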
